A study of Mus musculus with 2 samples.

Results

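The genes of the cytosolic ribosomal proteins were examined in mouse liver on 2 arrays, 1 for each of 2 diets. Members were the probe sets annotated to 1 gene only whose symbol starts with Rpl or Rps followed by a digit, or is Rplp0, Rplp1, Rplp2 or Rpsa. The kinase genes starting with Rps6k, with 6 probe sets, were left out. The rule found 101 probe sets of 49 genes among 20380 probe sets naming 1 of 12393 genes. A probe set was counted as measured where its signal reached 80 on at least 1 array. This held for 78 member probe sets of 43 genes, of which 22 genes encode large subunit and 21 small subunit proteins. Across the array 8525 probe sets and, with the brightest probe set standing for each gene, 5911 genes were measured.

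The arrays hold biotin-labelled cRNA from total liver RNA of female mice, 2 months old, on a C57BL/6J background. Both groups, controls included, are labelled as homozygous for a disrupted apolipoprotein E gene. The olive oil group had olive oil at 10% (w/w) in its chow. The other group had the same chow and the same share of an olive oil enriched in maslinic acid, a triterpene found in olives. Arrays are labelled as 4 weeks on the diet, and 12 mice in all, 6 per diet, are described. The sources used here do not give whether an array holds RNA of 1 mouse or a pool. With 1 array per diet no difference has a replicate check, no test between the diets can be made, and every direction below is between the arrays as labelled. The disrupted gene goes against the label: Apoe had a signal of 407.7 on the olive oil array and 7630 on the maslinic acid array. The hepatocyte markers that define the labelled tissue were present, with Alb, the albumin gene, at 9813 and 8497.

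Cytosolic ribosomes translate the mRNAs made in the nucleus. Their small subunit reads the mRNA and their large subunit joins the amino acids, and each subunit holds ribosomal RNA and a fixed set of proteins, nearly all needed in equal number. The mRNAs of these proteins are among the most abundant in most cells and start with a pyrimidine tract, the TOP element, through which growth signals acting by way of mTOR control their translation together. Hepatocytes, which secrete large amounts of plasma protein, hold many ribosomes. An array of total RNA shows the amount of mRNA and not its translation.

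The sequence at the transcript start is the feature by which these genes are known as a class, so it is shown for the 4 genes with a probe set at least 1.5-fold apart between the arrays (Rps27, Rpl39, Rpl37 and Rps10), for Rps28, whose 3 measured probe sets were all lower on the maslinic acid array, and for Rpl35, Rpl7a and Rpl38, chosen because they hold the motif. Each is 30 bases of the GRCm38.p6 RefSeq promoter table, 15 before and 15 from the annotated start, 5′ to 3′ on the gene's strand. Every match of the pyrimidine motif CTTTC, overlapping ones included, stands in capitals.
Rps27, chr3:90213634-90213663, minus strand: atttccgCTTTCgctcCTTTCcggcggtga
Rpl39, chrX:37085208-37085237, minus strand: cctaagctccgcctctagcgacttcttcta
Rpl37, chr15:5116598-5116627, plus strand: agtttcctgggcggaagcttatccacagga
Rps10, chr17:27635230-27635259, minus strand: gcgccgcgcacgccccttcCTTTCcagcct
Rps28, chr17:33824548-33824577, minus strand: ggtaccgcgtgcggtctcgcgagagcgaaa
Rpl35, chr2:39005117-39005146, minus strand: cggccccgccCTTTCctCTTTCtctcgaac
Rpl7a, chr2:26910792-26910821, plus strand: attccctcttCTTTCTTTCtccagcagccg
Rpl38, chr11:114668565-114668594, plus strand: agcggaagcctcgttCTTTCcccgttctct

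The promoter table held 50 start sites of 42 of the 49 member genes. Within 25 bases on either side of the start, CTTTC on the gene's strand was found in 12 of the 50 member promoters (24%) and in 6.76% of all 32851 promoters in the table. Its reverse complement GAAAG, searched on the same strand, was in 10% of member promoters and 6.1% of all. CTTCC, the core of the binding site of ETS factors, was found on either strand of the full 300-base window in 92% of member promoters and 71.4% of all. TATAAA was found on the gene's strand in 10% and 8.32%. CTTTC and CTTCC can overlap in a longer tract. Of the 4 genes with a probe set past 1.5-fold, Rps27 and Rps10 hold CTTTC in the window shown and Rpl39 and Rpl37 do not. A match is a description of the letters only, and a pyrimidine tract without CTTTC is not counted. The annotated start can lie some bases from the start used in liver.

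Ribosomal protein genes read nearly the same on both arrays. With 1 probe set per gene, 40 of the 43 measured genes lay within 1.2-fold, or 93%, where 81% of all 5911 measured genes did. Most members had a mean signal of at least 16 times the minimum. Of genes that bright, all 34 members lay within 1.2-fold, and 92.1% of all 770. The median log2 ratio of maslinic acid over olive oil was -0.06 (quartiles -0.12 and 0.01), against -0.01 over all measured genes (quartiles -0.13 and 0.12). At 1.5-fold, 2 member genes were higher on the maslinic acid array (background 1.47% of measured genes) and 1 was lower (background 1.57%). They were Rpl39 and Rpl37 on the higher side and Rps27 on the lower.

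**Figure D1:**
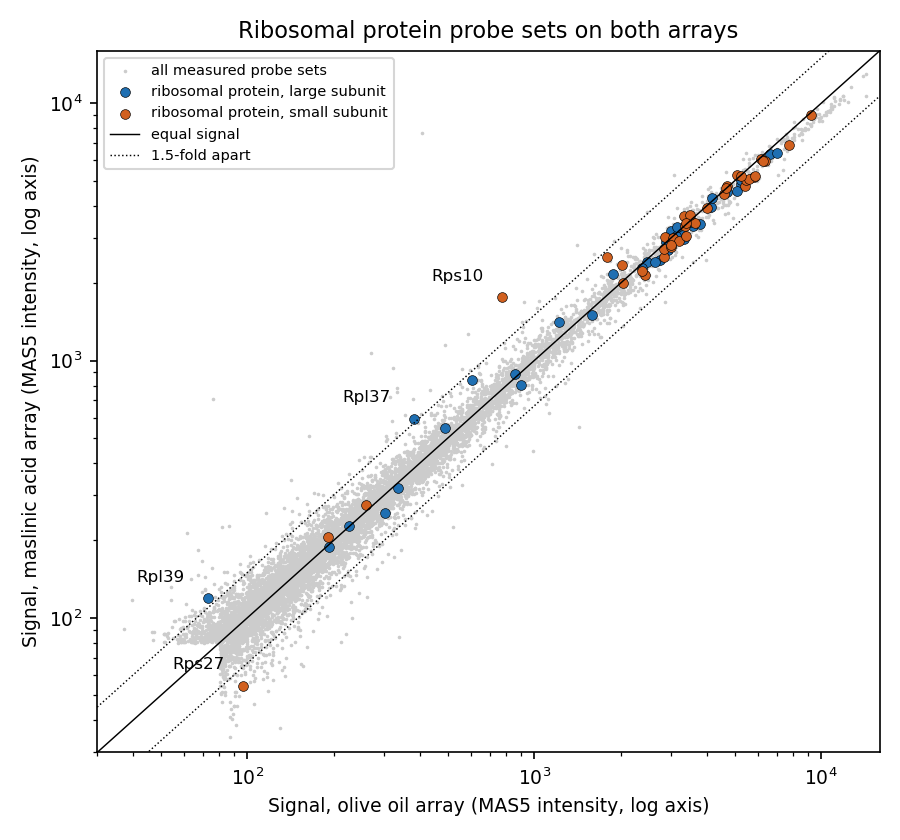
Signal of each measured probe set on the olive oil array (x axis) against the maslinic acid array (y axis), as MAS5 intensity on log axes; grey points are all measured probe sets, coloured points are ribosomal protein probe sets by subunit, and dotted lines mark 1.5-fold. Most of the 78 coloured points lie on the line of equal signal at the bright end, and those of Rps10, Rpl37, Rpl39 and Rps27 lie outside the dotted lines.

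Most member genes were lower on the maslinic acid array, by small amounts. Of the 43 genes 31 were lower on the maslinic acid array and 12 higher, 72.1% lower against a background of 52% of measured genes. With quantile normalization 24 were lower and 17 higher, and with the loess trend on signal removed 23 were lower and 20 higher. The member median was then -0.0088 and -0.001, against -0.008 and -0.0053 over all measured genes. Member genes are mostly bright: 34 of 43 had a mean signal of at least 16 times the minimum of 80. Of these 28 were lower, or 82.4%, with a median of -0.06. The 770 measured genes of that brightness had a median of -0.04, with 63.9% lower. With quantile normalization 21 of the 34 were lower, or 61.8%, against 52.3% of the genes of that brightness. With the loess trend removed 20 were lower, or 58.8%, against 52.2%. The part of brightness in the member values was not tested. The 50 brightest genes of the array, of which 1 is a member, had a median of -0.14.

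Large and small subunit genes had medians that lay close together. Large subunit genes had a median log2 ratio of -0.06, with 16 of 22 lower on the maslinic acid array and 6 higher. Small subunit genes had a median of -0.05, with 15 of 21 lower and 6 higher. The difference of the medians, large minus small, was -0.0088 and has no error, since each diet has 1 array. Under quantile normalization 13 of 22 large and 11 of 21 small subunit genes were lower, and with the loess trend removed 12 and 11. Over probe sets, with genes read by several sets counted several times, the medians were -0.06 for 37 large subunit and -0.03 for 41 small subunit probe sets.

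**Figure D2:**
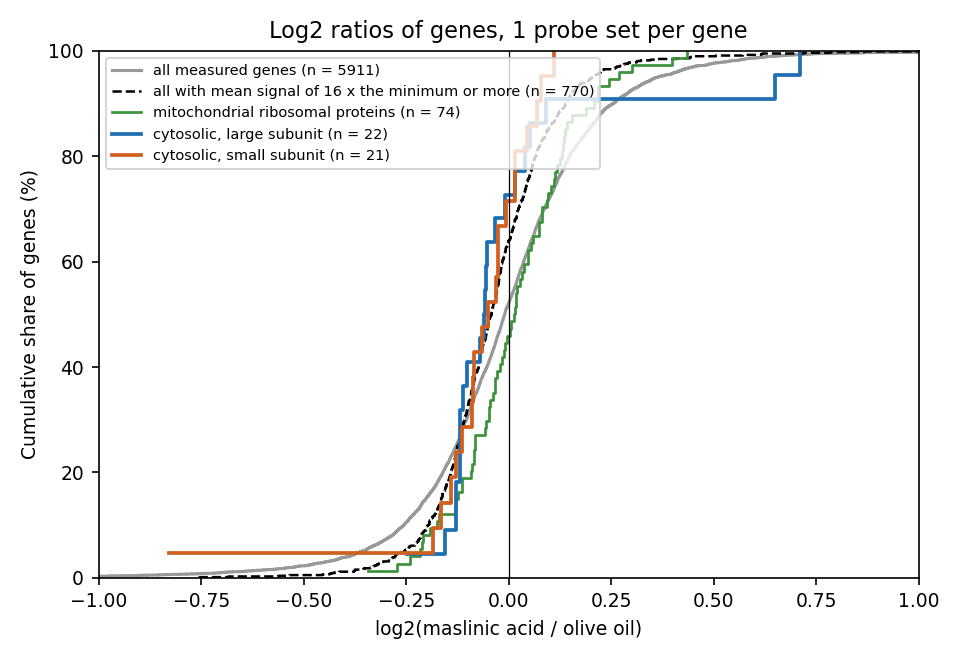
Cumulative share of genes (y axis, %) by log2 ratio of maslinic acid over olive oil (x axis), 1 probe set per gene, for the large and small subunit, the mitochondrial ribosomal proteins, all measured genes and those with a mean signal of at least 16 times the minimum. The curves of both subunits run together and close to that of bright genes, apart from Rps27 at the left and Rpl37 and Rpl39 at the right; values beyond 1 on either side are not drawn.

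Several large subunit proteins lie at the catalytic core or along the exit tunnel, through which the new chain leaves. Rpl8, which lies near the peptidyl transferase centre, had a signal of 2634 on the olive oil array and 2426 on the maslinic acid array, a log2 ratio of -0.12. Rpl4, which reaches into the tunnel, read 3119 and 3047, a log2 ratio of -0.03. Rpl35, at the mouth of the tunnel, was read by 5 measured probe sets, all lower on the maslinic acid array, from -0.16 to -0.0033, but from -0.12 to 0.03 with the loess trend on signal removed. Rpl19, which takes part in a bridge between the subunits, read 3572 and 3326.

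Rpl39, a very short protein of the same tunnel, stood apart. Its only probe set naming it alone read 72.7 on the olive oil array and 119 on the maslinic acid array, a log2 ratio of 0.71, or 1.64-fold. That signal is among the lowest of the measured members: on the olive oil array it lay under the minimum of 80. With a floor of 80 in place of 40 its log2 ratio was 0.57, under 1.5-fold.

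The stalk of the large subunit, which recruits elongation factors, was read through Rplp0 and Rplp2. Rplp0, the base of the stalk and a common reference gene, read 4174 on the olive oil array and 4292 on the maslinic acid array, a log2 ratio of 0.04. Rplp2 read 3479 and 3458, a log2 ratio of -0.01. Rpl10a, the protein of the other stalk, read 3290 and 3029, a log2 ratio of -0.12. These values lie within the range of the other bright members.

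Rpl11, which binds the p53 regulator Mdm2 when ribosome assembly is disturbed, read 2996 on the olive oil array and 3191 on the maslinic acid array, a log2 ratio of 0.09. It was the highest of the bright large subunit genes. Mdm2 itself, dim at 74.5 and 85.9, had a log2 ratio of 0.21. Rpl38, known for its role in the translation of Hox mRNAs, read 7010 and 6415, a log2 ratio of -0.13. Rpl6 had a log2 ratio of -0.13, Rpl7a of -0.06 and Rpl27a of 0.02.

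Rpl37, a zinc-binding protein, was the other large subunit gene past 1.5-fold. Its only probe set naming it alone, an _x_at set, read 379.7 on the olive oil array and 595.3 on the maslinic acid array, a log2 ratio of 0.65, or 1.57-fold. An _x_at set can read transcripts of other genes. Rpl37a, a separate gene, was lower with both measured probe sets, at 5273 and 4858 with the brighter, a log2 ratio of -0.12, and at -0.15 with the other. Rpl41, the shortest ribosomal protein, read by 2 measured probe sets, had log2 ratios of -0.06 and -0.16.

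Some small subunit proteins lie at the mRNA entry and around the decoding site. Rps3, at the entry, had a signal of 2994 on the olive oil array and 2818 on the maslinic acid array, a log2 ratio of -0.09. Rps2 read 6357 and 5979, a log2 ratio of -0.09. Rps9, which affects decoding accuracy, gave opposite signs on its 2 measured probe sets, -0.08 and 0.22. Rps6, the substrate of the S6 kinases, read 260.3 and 275.1 on the 1 measured probe set naming it alone, a log2 ratio of 0.08.

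Rpsa, also known as the precursor of the laminin receptor, read 3368 on the olive oil array and 3055 on the maslinic acid array, a log2 ratio of -0.14. Its other probe set read 4.2 and 0.8 and was not measured. Rps19, the gene most often mutated in Diamond-Blackfan anaemia, an inherited failure of red cell production, read 2036 and 2001, a log2 ratio of -0.02. Rps26, also linked to that disease, had a log2 ratio of -0.06. Rps15, Rps7 and Rps20 were higher on the maslinic acid array with both measured probe sets of each, all between 0.01 and 0.09, and their sign was the same under each scaling tried.

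Rps28 and Rps29, short proteins of the small subunit, were read by 3 measured probe sets each. All 6 were lower on the maslinic acid array. For Rps28 the signals were 7695 on the olive oil array and 6865 on the maslinic acid array, 5841 and 5183, and 5610 and 5096, with log2 ratios from -0.17 to -0.14. For Rps29 they were 9205 and 9013, 6261 and 5968, and 5898 and 5232, with log2 ratios from -0.17 to -0.03. With the loess trend on signal removed the sets of Rps28 still lay between -0.11 and -0.08, while those of Rps29 ran from -0.11 to 0.05. The 3 measured probe sets of Rps18 were also all lower, from -0.11 to -0.03, but reached 0.01 with that trend removed.

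Rps27, a zinc finger protein, was the lowest member. Its only probe set naming it alone read 96.8 on the olive oil array and 54.5 on the maslinic acid array, a log2 ratio of -0.83, a drop of 1.78-fold. This is the dimmest measured member by mean signal, and with a floor of 80 the log2 ratio was -0.28. Its paralog Rps27l, a p53-induced gene, was read by 3 bright probe sets with signals of 3186 and 2914, 2996 and 2772, and 2428 and 2160. Their log2 ratios were -0.13, -0.11 and -0.17, so the paralog was also lower on the maslinic acid array, but by at most 1.12-fold. The first and last of these are _x_at sets, which can read transcripts of other genes.

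The other measured copies lay within 1.2-fold. Rpl22 read 855.5 on the olive oil array and 886.8 on the maslinic acid array with its brighter probe set, a log2 ratio of 0.05, and -0.07 with the other. Its paralog Rpl22l1, which can take its place in the ribosome, read 896.4 and 805.5, a log2 ratio of -0.15. Rpl7l1, related to Rpl7, had log2 ratios of -0.25 and -0.03 on its 2 probe sets, and Rps4l, a copy of Rps4x, of 0.11. Rpl3l, the striated muscle copy of Rpl3, read 1.9 and 1.3, and Rpl39l, the testis copy of Rpl39, read 5.8 and 4.7. These signals lie far under the minimum, as did the pseudogene Rps15a-ps6.

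**Figure D3:**
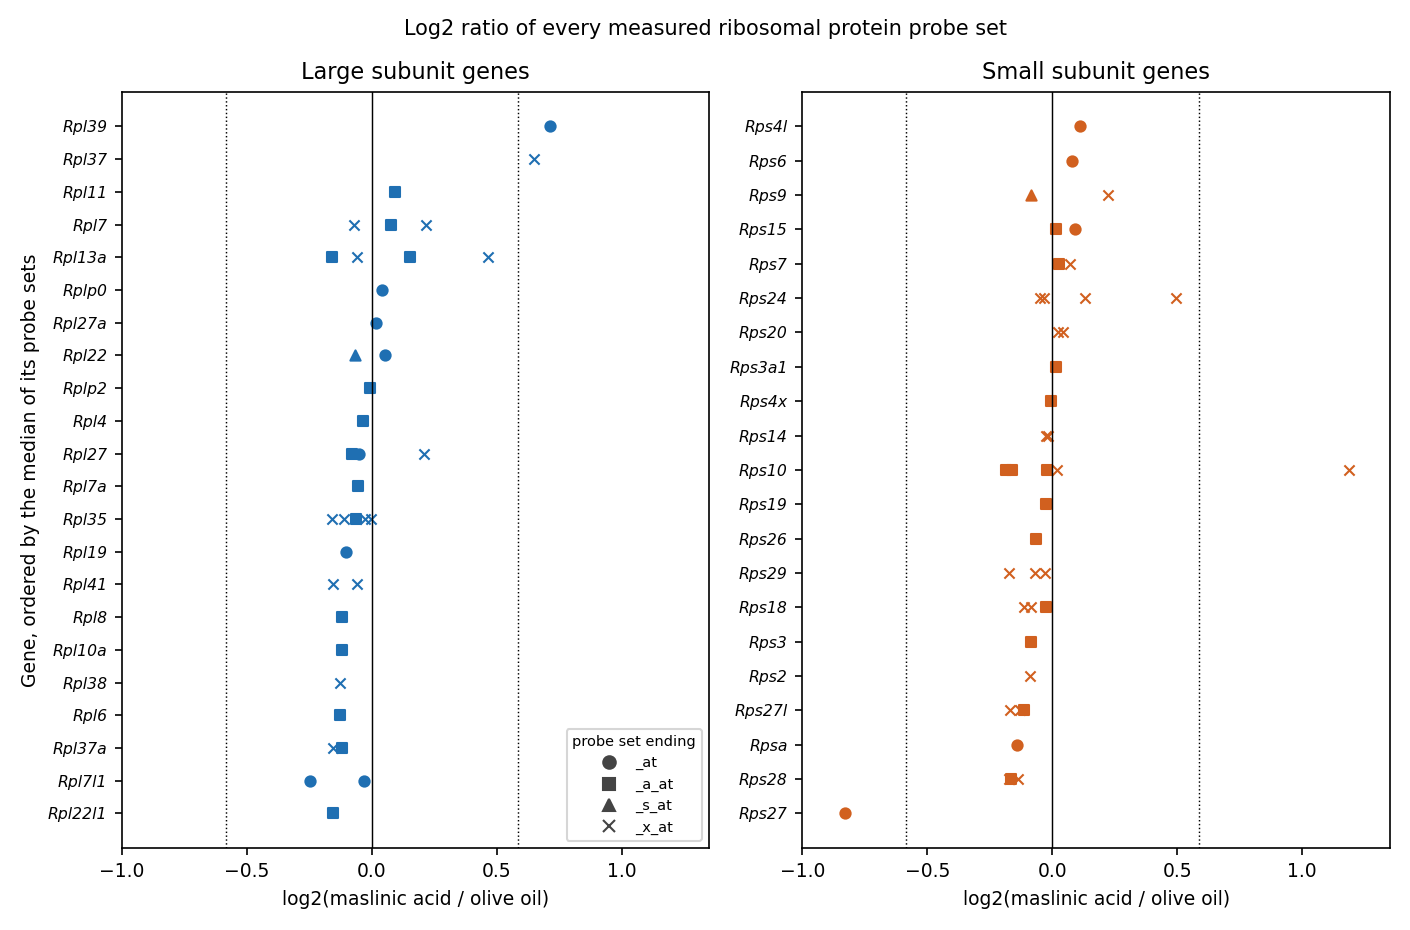
Log2 ratio of maslinic acid over olive oil (x axis) of every measured ribosomal protein probe set, 1 row per gene with the large subunit on the left and the small on the right; symbols give the probe set ending and dotted lines mark 1.5-fold. Most rows are tight and lie between -0.2 and 0.2, and in Rps10, Rps24 and Rpl13a an _x_at set lies far to the right of the others.

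Probe sets of the same gene are the only repeat measurement, and they share the hybridisation. Of the 43 genes 19 had 2 or more measured probe sets, 54 in all. In 9 of them every set was lower on the maslinic acid array, in 3 every set was higher, and in 7 the signs differed. All sets had the same sign in 63.2% of these genes and in 47.9% of the 1815 genes of the array with several, where 435 were all lower and 435 all higher. With quantile normalization these counts were 5, 4 and 10, and with the loess trend removed 4, 5 and 10. The genes lower with every set under each scaling were Rps28, Rps27l, Rpl37a and Rpl7l1. The median spread from lowest to highest was 0.12 on the log2 scale, against 0.22 over the 1815 genes with several measured probe sets. Rps10 and Rpl13a, 2 of 19, spread by more than 1.5-fold, as did 206 of the 1815. Members are mostly bright, so the same was read from sets with a mean signal of at least 320 only. There 2 of 18 members and 30 of 658 genes spread by more than 1.5-fold. The median spread was 0.11 against 0.16, and the sign was the same in 61.1% against 53.6%.

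Rps10, a protein of the small subunit's head that is ubiquitinated when ribosomes stall, showed the widest spread. Of its 5 measured probe sets 4 were close. Their signals were 5437 on the olive oil array and 4781 on the maslinic acid array, 3433 and 3480, 3046 and 2998, and 2840 and 2536, with log2 ratios from -0.19 to 0.02. The remaining _x_at set read 774.4 and 1762, a log2 ratio of 1.19, or 2.27-fold higher. It was the only member probe set at least 2-fold apart (background 0.716% of measured probe sets). The gene is represented by its brightest set at -0.19, and the mean over its 5 sets was 0.17.

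Rps24, which is needed to process the precursor of small subunit RNA, and Rpl13a, which also silences inflammatory mRNAs outside the ribosome, had the next highest probe sets among genes read by several. The dimmest measured set of Rps24 read 1796 on the olive oil array and 2534 on the maslinic acid array, a log2 ratio of 0.50. Its other measured sets gave -0.05, -0.04 and 0.13. For Rpl13a, the set at 606.4 and 837.8 had a log2 ratio of 0.47, while the others gave -0.06, -0.16 and 0.15. Rpl27 and Rpl7 showed the same order, with 1 _x_at set at 0.21 and 0.22 and the brightest set at -0.05 and -0.07. In these 5 genes, which were singled out after their values were seen, and in Rps9, the highest value came from an _x_at set that was not the brightest of the gene. In Rps24 all 4 measured sets are _x_at sets, so its highest could have no other ending. The brightest sets of Rpl7 and Rpl13a, at -0.07 and -0.06, are _x_at sets as well. The part of the ending in these values was not tested.

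Across the 19 genes, 23 of the 35 measured sets dimmer than the gene's brightest had a higher log2 ratio than it, or 65.7%, against 53.7% of 2611 such sets over all genes and 58% of 617 in genes whose brightest set reached 16 times the minimum. With the loess trend removed the member share was 60%, against 51.9% over all genes and 52.9% in the bright ones. By ending, the 36 member _x_at sets had a median of -0.04 and ran from -0.17 to 1.19. The 27 _a_at sets had a median of -0.06, all within 1.2-fold (background 79% of measured probe sets), and the 13 _at sets a median of 0.02. Over all measured sets the medians were 0.03 for _x_at, 0.01 for _a_at and -0.01 for _at sets. At the level of probe sets, 3 members were at least 1.5-fold higher (background 1.77%) and 1 was lower (background 1.89%). Of the 3 higher sets 2 are _x_at sets. Among _x_at sets 2 of 36 members and 39 of 718 over the array were that much higher.

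Some probe sets gave no usable signal. Of the 23 member sets under the minimum, 17 belonged to genes measured by another set. The other 6 were the only sets naming Rpl12, Rpl14, Rps25, Rpl3l, Rpl39l or Rps15a-ps6 alone. Rpl14 read 44.5 and 41.3, Rps25 42.2 and 31.7 and Rpl12 44 and 17.3 on the olive oil and maslinic acid arrays. The first 3 named are core proteins of every ribosome. Just inside the minimum were Rps27 and Rpl39, and just outside it a second set of Rpl37a, at 53.1 and 69. Another 102 probe sets list a matching symbol together with other genes and are left unnamed. Of these 87 were measured, with a median log2 ratio of -0.04. Within 1.2-fold lay 86 of them, or 98.9%, against 83.8% of all 388 measured sets listing several genes. Of sets naming 1 gene with a mean signal of at least 16 times the minimum, 91.6% did. The remaining set of the 87 read 117.2 and 63. Rplp1, Rpl3, Rpl5 and Rps27a were named alone by no probe set and are not described.

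The other ribosome of the cell, that of the mitochondria, has its own nuclear-encoded proteins. Their 74 measured genes had a median log2 ratio of 0.01, with 34 lower and 40 higher on the maslinic acid array. By the brightest set of each gene 0 were 1.5-fold apart, where 1.47% of all measured genes were higher and 1.57% lower. By the same sets the lowest was Mrpl50 at -0.34 and the highest Mrpl54 at 0.44. Mrpl13 lay at 0.07 with its brightest set but at 0.65 with another. The difference between the 2 sets of genes was not tested.

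By the brightest set of each gene, the lists of translation factors hold no measured gene at 1.5-fold. Over all measured genes 1.47% were that much higher and 1.57% lower. Eif4ebp2, of the initiation list, lay at 0.18 with its brightest set but at -0.87 with another. The lists include the mitochondrial Tufm and Mtif2. Of 34 measured initiation factors 21 were lower and 13 higher on the maslinic acid array, with a median of -0.04. Eif2b4 lay at -0.29, Eif3a at -0.24 and Eif3m at 0.22. Elongation factors had a median of -0.14 over 6 genes, with 4 lower and 2 higher. With quantile normalization the median was -0.06, with 3 lower and 3 higher. The higher 2 were Eef1b2 at 0.09 and Eif5a at 0.06, with 0.35 on its other set, before that step. Eef2, the translocase, read 2823 on the olive oil array and 2514 on the maslinic acid array, a log2 ratio of -0.17. Eef1d lay at -0.19, with 0.12 on its other set, and Tufm at -0.29. Of 8 termination and recycling genes, Pelo, which rescues stalled ribosomes, was the highest at 0.35, although dim at 64.2 and 81.7.

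Other TOP mRNAs and ribosome-bound factors, 17 genes with a median of -0.01, had 10 members lower and 7 higher, but 8 lower and 9 higher with quantile normalization or the loess trend removed. Fau, which encodes a ubiquitin-like protein fused to a small subunit protein, read 3708 on the olive oil array and 3323 on the maslinic acid array, a log2 ratio of -0.16. Npm1 lay at -0.21, with -0.11 on its other set. The highest was Btf3, a subunit of the nascent chain complex, at 0.31, with 0.05 on its other set; its partner Naca lay at 0.14.

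Ribosome assembly genes, by the brightest set of each, ran from -0.54 to 0.54. Of 36 measured biogenesis factors 21 were lower and 15 higher, with a median of -0.03 and 0 at 1.5-fold. Noc4l, whose brightest set was under the minimum, is not among them, and lay at -0.79 with another set. The kinase Riok2 of small subunit maturation read 163.2 on the olive oil array and 237.7 on the maslinic acid array, a log2 ratio of 0.54. The nucleolar helicase Ddx21 read 119.9 and 82.2, a log2 ratio of -0.54. Ddx18 lay at 0.52 with -0.14 on its other set. The 4 measured genes of RNA polymerase I transcription were lower by their brightest set, from -0.26 for Polr1c to -0.08 for Znrd1. Ubtf lay at -0.14 and Polr1d at -0.12, with 0.01 on its other set. Among 7 regulators, Larp1, which binds TOP mRNAs, lay at -0.12, Mtor at -0.11, Tsc2 at -0.24 and the kinase gene Rps6ka3, at 131.4 and 96.3, at -0.45.

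**Figure D4:**
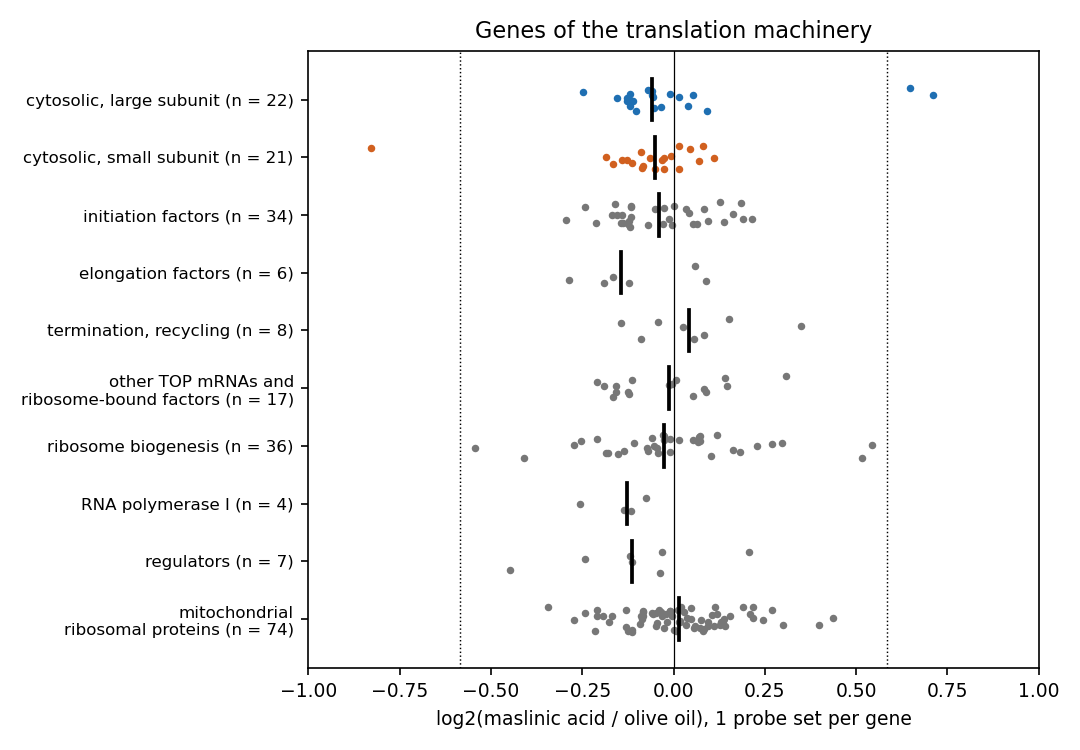
Log2 ratio of maslinic acid over olive oil (x axis) of each measured gene of the translation machinery, 1 probe set per gene; black bars are medians and dotted lines mark 1.5-fold. In every list but that of the cytosolic ribosomal proteins all points lie inside the dotted lines.

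Markers of other cells differed between the arrays as well. By the brightest set of each gene, all 10 measured hepatocyte markers were lower on the maslinic acid array, with a median of -0.18. Their summed signals were 86100 on the olive oil array and 75699 on the maslinic acid array. With quantile normalization 9 were lower and the median was -0.07, and with the loess trend removed it was -0.1. Other measured sets reached 0.64 for Hnf4a and 0.12 for Tdo2, while those of Ttr and Apoa1 were all lower. Of the 50 brightest genes of the array 94% were lower, with a median of -0.14. Of 6 measured lymphocyte and antigen presentation markers 5 were higher, with summed signals of 3015 and 4239 over the 6. The 5 were Ighm, at 322.9 and 936.2, and Cd74, H2-Aa, H2-Ab1 and H2-Eb1. Ptprc was lower, at -0.14. The T and B cell markers Cd3e, Cd3g, Cd3d, Cd79a, Cd79b and Ms4a1 were under the minimum. All 7 endothelial markers were lower by their brightest set, with 2806 and 2552, and Eng had 0.01 on its other set. Of 12 macrophage markers 7 were higher and 5 lower, with a median of 0.05 and summed signals of 12197 and 12163. Among them the scavenger receptor gene Marco read 338.1 and 84.6, a log2 ratio of -2.00, and C1qb lay at 0.43. The 8 measured markers of stellate cells and matrix had a median of 0.21, while their summed signals were 4932 and 4930. By the brightest set 6 were higher, with Acta2 at 0.35 and Lum at 0.34, and 2 lower. The lower were Dcn at -0.19 and Col4a1 at -0.26, with -0.66 on its other set. With quantile normalization 5 were higher and 3 lower. The only measured erythroid marker, Alas2, had a log2 ratio of 0.68. The part of cell composition in the ribosomal protein values was not tested. Fewer cells of a type and less RNA per cell cannot be told apart in whole liver. The control probe sets of 18S ribosomal RNA, the RNA of the small subunit, read 413.9 and 294 at the 3′ end and 320.9 and 261.2 in the middle, but 3553 and 197.7 at the 5′ end. Those of the beta-actin mRNA had log2 ratios of -0.25 at the 3′ end, -0.40 in the middle and -0.51 at the 5′ end. Those of Gapdh lay at 0.05, 0.04 and 0.08.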

How the data were processed

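Signals were MAS5 intensity values per probe set on a linear scale, deposited by the authors, with MAS5 named without version per the submitters' processing notes. The deposited intensities had 2% trimmed means of 200.1 on each array, so no further scaling was applied. Detection calls were not used here, and the number of arrays limits the precision. Signals under 40 were set to 40 before log2 ratios of maslinic acid over olive oil were taken. A gene was represented by its probe set of highest mean signal among those naming it alone. Gene names came from the platform annotation; the Entrez numbers of all 49 member genes were found in RefSeq's GRCm38.p6 gene table, with 0 changes of symbol. Start sequences and motif shares came from the RefSeq promoter table of that build.

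Differences are described by size, with 1.5-fold as the main size, and no test was made. Named genes were members at least 1.5-fold apart, the 6 highest and 6 lowest probe sets, genes with 3 or more measured sets, members of known role or paralogs, and up to 3 genes of each list with the widest log2 ratio; others (such as Rpl8, Rps3 and Mrpl50) were added after their values were seen. Members and lists were chosen with earlier results of these data known. Steps were tested on simulated data. Python 3.11.15, pandas 2.3.3 and statsmodels 0.14.6 were used.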

Additional observations from a re-analysis of the deposited data

How the results depend on the processing

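All alternatives were chosen with earlier results of these data known. The count of ribosomal protein genes at least 1.5-fold higher was 1 with a floor of 80, with a minimum of 160 and without _x_at and _s_at sets, and otherwise 2. The count at least 1.5-fold lower was 0 with a floor of 80, with a minimum of 160 and with the minimum of 80 set on mean signal, and otherwise 1. The medians are small, so no spread between single probe sets can show them stable, and their ranges are given. The gene median ran from -0.06 to -0.001, and the large minus small difference from -0.03 to -0.004. The median over probe sets turned to 0.0013 with the loess trend removed. Of 457 values of single genes 2 moved by more than the SD between probe sets of the same gene (0.23) and 22 changed sign, all of genes within 1.2-fold. No paired analysis was possible because there is only 1 array per diet, and no array could be left out.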
